A study of Mus musculus with 2 samples.

Results

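Thrombospondins and matricellular proteins are secreted proteins that sit in the extracellular matrix and tune how cells attach to it, rather than building its fibres. The genes described here were Thbs1, Thbs2, Thbs3, Sparc, Tnc, Postn and Spp1, and they were measured by all array probes whose platform gene symbol was one of these 7. This gave 14 of 25697 probes, for 6 of the 16593 genes on the array, since Spp1 had 0 probes under its symbol. The probes were measured in mouse embryonic fibroblasts of C57BL background on Illumina bead arrays with 1 colour. The Dnmt1-/- (p53-/-) line lacked p53 and Dnmt1, which maintains CG methylation when DNA replicates. By its label the p53-/- line lacked only p53 of these 2 genes, so loss of p53 was shared by both. Whether the lines differed in other ways, such as the sex of the embryos, was not tested. Cells grew in medium with 15% foetal calf serum. The sources used here do not say whether a line was 1 clone, nor how old the embryos were. Each genotype had 1 sample, so there was no replicate error and no test. Every difference below is a difference between these 2 deposited samples, which are called arrays.

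Thrombospondins bind calcium, heparan sulphate and integrins, and some of them bind the receptors Cd36 and Cd47. Thbs1 and Thbs2 form the subgroup known for restraining blood vessel growth, while Thbs3 belongs to the subgroup with Thbs4 and Comp. Sparc binds collagen and helps it assemble, Tnc is a tenascin of developing and wounded tissue that loosens adhesion, and Postn brings collagen together with the enzymes that crosslink it. Spp1, osteopontin, is a phosphorylated ligand of integrins and Cd44. Fibroblasts are a common source of these proteins, and many of them are made at a higher level in remodelling tissue.

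The deletion studied acts on methylation at CG dinucleotides, so the start regions of the thrombospondin genes with the largest differences in each direction are shown, as the 250 bases before the RefSeq start site, with every CG in capitals. No methylation was measured in these samples. The Thbs2 window lies on the minus strand at chr17:14694263-14694512 of GRCm38.p6, and the Thbs3 window on the plus strand at chr3:89214930-89215179 of the same build.
Thbs2: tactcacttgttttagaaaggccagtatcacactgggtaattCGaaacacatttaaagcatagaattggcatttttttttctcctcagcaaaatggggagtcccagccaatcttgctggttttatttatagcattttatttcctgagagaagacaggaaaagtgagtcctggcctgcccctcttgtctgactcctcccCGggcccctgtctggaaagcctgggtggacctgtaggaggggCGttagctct
Thbs3: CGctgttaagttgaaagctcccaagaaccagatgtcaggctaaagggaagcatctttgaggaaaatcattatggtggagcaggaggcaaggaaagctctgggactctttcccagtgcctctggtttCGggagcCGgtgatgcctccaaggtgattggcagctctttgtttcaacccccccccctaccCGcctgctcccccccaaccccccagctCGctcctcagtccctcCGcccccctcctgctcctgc
The Thbs2 window held 3 CG and the Thbs3 window 6, and the median over 32851 mouse promoter windows of this length was 6. Of those windows, 37.8% held 3 CG or fewer. Sparc had 4 CG, the Tnc starts had 8 and 10, the Postn starts 3 and 4, and each of the Spp1 starts 3. The Sp1 motif GGGCGG, searched on both strands, was in the Thbs3 window and in both Tnc windows, as it was in 32.7% of all windows. The AP-1 motif TGANTCA was in none of the member windows and in 6.75% of all windows.

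The arrays had medians of 129.8 units in the Dnmt1-/- (p53-/-) line and 150.5 units in the p53-/- line over all probes. A probe was called detected at a deposited detection p-value under 0.01, and 39.1% of probes passed in the Dnmt1-/- (p53-/-) line and 40.1% in the p53-/- line. The Dnmt1 probe read 439 units in the Dnmt1-/- (p53-/-) line and 1715 units in the p53-/- line, a difference of -2.18 log2, and the sources used here do not place it relative to the deleted part, so it may not check the label. Trp53, the gene of p53, had 0 probes under its symbol. Of 13 fibroblast markers 12 were detected on both arrays, with Lum, the matrix proteoglycan lumican, as the exception. Of these 12 genes 1 was higher by 2-fold or more, 2 were lower and 9 lay in between. Over all detected genes 5.55% were higher and 4.59% lower. The median difference of the 12 was -0.50 log2, beside -0.04 log2 over all detected genes. S100a4, a calcium-binding protein, was higher at 1.99 log2, while Dcn, the proteoglycan decorin, was lower at -1.84 log2 and Prrx1, a mesenchymal transcription factor, at -1.18 log2. Their part in the thrombospondin differences was not tested.

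Of the 14 probes of these genes 9 were detected, all 9 on both arrays, and they came from Thbs1, Thbs2, Thbs3, Sparc and Tnc. The other 5 were detected on neither array. By a fixed rule of size, 2-fold or more after background correction and normalization, 2 member probes were higher in the Dnmt1-/- (p53-/-) line, 2 were lower and 5 lay in between. Over all 10811 probes detected on at least 1 array, 9.39% passed this rule, 5.21% as higher and 4.18% as lower. The 4 member probes past the rule belonged to the 3 thrombospondins, and 2 of them measured the same gene, Thbs3. The median difference of the 9 detected probes was 0.0038 log2, beside -0.02 log2 over all detected probes, because the thrombospondins lay on both sides of 0 and Sparc and Tnc near it.

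**Figure D1:**
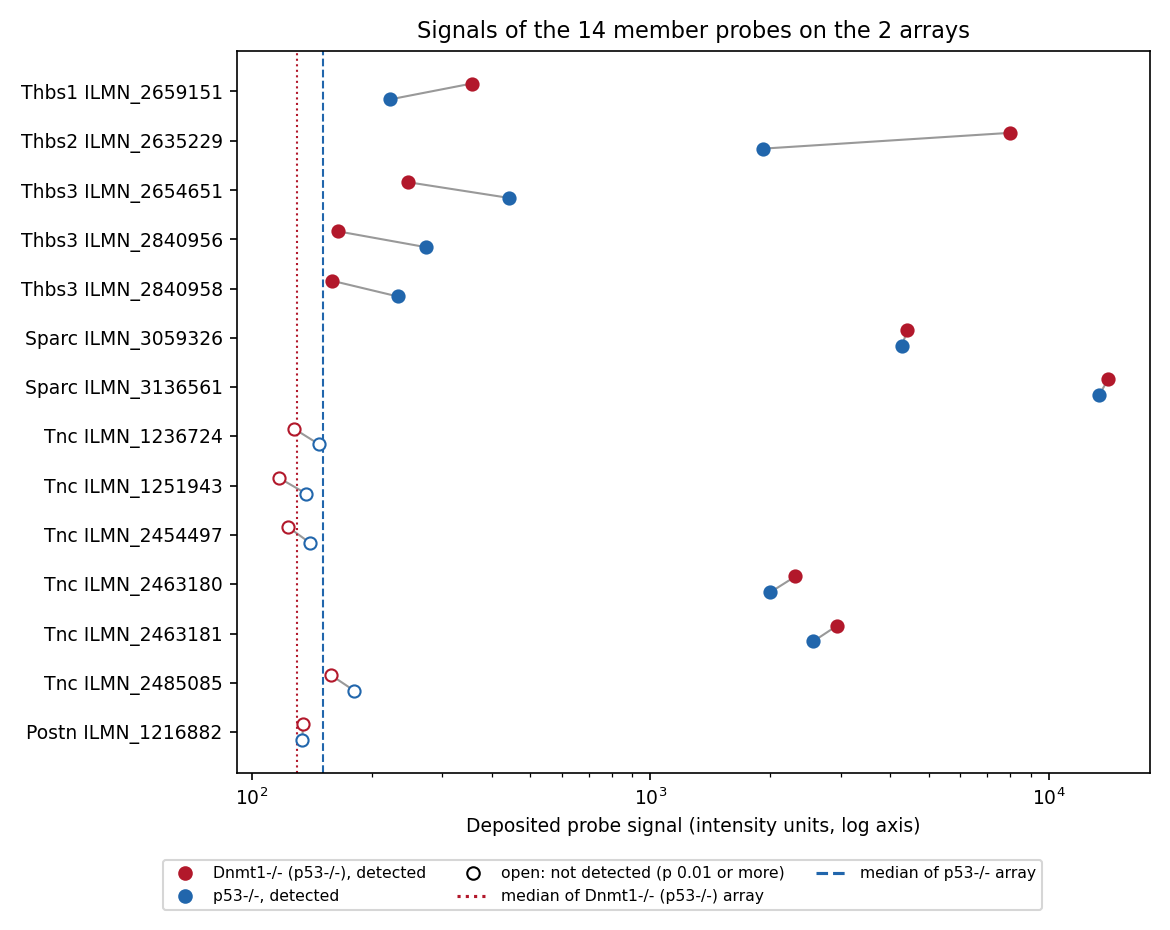
Deposited signals of the 14 member probes in intensity units on a log axis, with the Dnmt1-/- (p53-/-) array in red above the p53-/- array in blue for each probe. Filled points were detected and open points were not, and the vertical lines mark the array medians, 129.8 units for Dnmt1-/- (p53-/-) and 150.5 units for p53-/-. Thbs2 and Thbs1 are higher in the Dnmt1-/- (p53-/-) line, the 3 Thbs3 probes are lower, and Sparc lies close together on both arrays.

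Thbs2, which limits vessel growth and is needed for normal collagen fibrils in mouse skin, showed the largest difference of the members. Its 1 probe (ILMN_2635229) read 7979 units in the Dnmt1-/- (p53-/-) line and 1919 units in the p53-/- line. Both signals were far above background, and without any correction their ratio was 4.16. After normalization the level was 12.90 log2 in the Dnmt1-/- (p53-/-) line and 10.79 log2 in the p53-/- line, 4.33-fold higher by a difference of 2.11 log2. As a measure of scatter, which is not a replicate error, the robust SD of the difference over the 500 detected probes nearest in mean level was 0.28 log2. Among those 500 probes, 1 had a larger absolute difference than Thbs2. Over all 10811 detected probes its difference ranked 159th from the top.

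Thbs1, the thrombospondin that can activate latent TGF-beta, was also higher, from a much dimmer probe. Its 1 probe (ILMN_2659151) read 356 units in the Dnmt1-/- (p53-/-) line and 222 units in the p53-/- line, with a detection p-value of 0 on both arrays. The uncorrected ratio was 1.60, while after background correction and normalization the levels were 8.04 log2 in the Dnmt1-/- (p53-/-) line and 6.62 log2 in the p53-/- line. The difference of 1.42 log2, 2.68-fold, compared with a scatter of 0.41 log2 among probes of similar level, of which 39 of 500 had a larger absolute difference. The size of the Thbs1 difference depended on how background was treated: without background correction it was 0.84 log2, below 2-fold. In the authors' processed values, 237.4 units in the Dnmt1-/- (p53-/-) line and 86.8 units in the p53-/- line, it was 1.45 log2.

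Thbs3, whose product assembles like Thbs4 and Comp and is known in mice from the skeleton, lay in the opposite direction. Probe ILMN_2654651 read 246 units in the Dnmt1-/- (p53-/-) line and 442 units in the p53-/- line, a difference of -1.05 log2. Probe ILMN_2840956 read 165 units in the Dnmt1-/- (p53-/-) line and 274 units in the p53-/- line, a difference of -1.17 log2. Probe ILMN_2840958 read 159 units in the Dnmt1-/- (p53-/-) line and 232 units in the p53-/- line, a difference of -0.87 log2, which is below 2-fold. All 3 probes were thus lower in the Dnmt1-/- (p53-/-) line, with a mean of -1.03 log2 and 0.30 log2 between the extremes. They share a target and are not replicates of the condition.

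The Thbs3 signals lay near background, above all in the Dnmt1-/- (p53-/-) line. There the detection p-values were 0 for ILMN_2654651, 0.00282 for ILMN_2840956 and 0.00877 for ILMN_2840958, the last close to the limit of 0.01, and all 3 were 0 in the p53-/- line. The scatter among probes of similar level was 0.39 log2 for ILMN_2654651, 0.47 log2 for ILMN_2840956 and 0.49 log2 for ILMN_2840958. Without background correction the differences, in this probe order, were -0.69, -0.55 and -0.36 log2, so none reached 2-fold, nor did any with an offset of 50. With the authors' processed values they were -1.26, -1.52 and -1.19 log2, in the same probe order, so all 3 did.

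**Figure D2:**
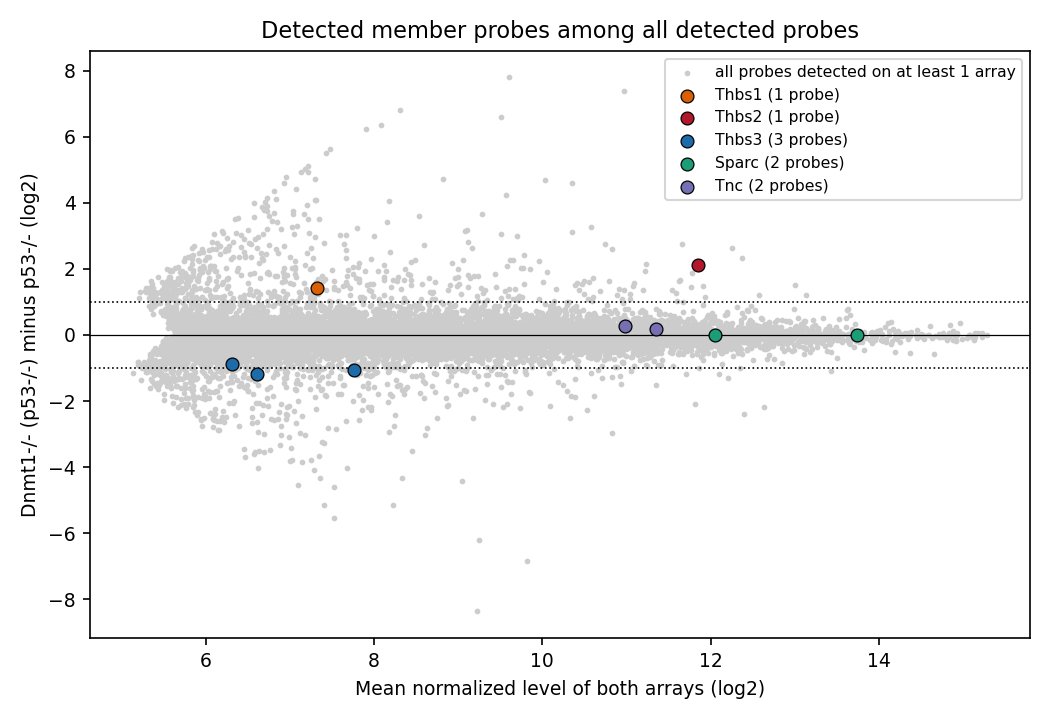
Difference between the arrays, Dnmt1-/- (p53-/-) minus p53-/- in log2, against the mean normalized level in log2, for all probes detected on at least 1 array in grey and the 9 detected member probes in colour. Dotted lines mark 2-fold. Thbs2 lies at 2.11 log2 above most, but not all, grey probes of like level, Thbs1 lies at 1.42 log2 among dimmer and more scattered probes, and the Thbs3 probes lie between -1.17 and -0.87 log2.

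Sparc, a collagen-binding protein that fibroblasts release in large amounts, was nearly equal in both lines. Probe ILMN_3136561 read 14094 units in the Dnmt1-/- (p53-/-) line and 13363 units in the p53-/- line, a difference of -0.01 log2. Probe ILMN_3059326 read 4415 units in the Dnmt1-/- (p53-/-) line and 4278 units in the p53-/- line, a difference of 0.0038 log2. The scatter at these levels was 0.19 log2 for ILMN_3136561 and 0.28 log2 for ILMN_3059326, so both differences were a small part of it. With 1 array per line, a small difference does not show equal expression. The sign of ILMN_3136561 turned under median scaling (0.047 log2), cyclic loess (0.0042 log2) and the authors' values (0.05 log2).

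Tnc, a tenascin that lowers adhesion to fibronectin, was measured by 6 probes, of which 2 were detected. Probe ILMN_2463181 read 2940.0 units in the Dnmt1-/- (p53-/-) line and 2561 units in the p53-/- line, a difference of 0.19 log2. Probe ILMN_2463180 read 2312 units in the Dnmt1-/- (p53-/-) line and 2000.1 units in the p53-/- line, a difference of 0.26 log2. Both Tnc differences were below the scatter among probes of similar level, which was 0.32 log2 for ILMN_2463181 and 0.31 log2 for ILMN_2463180.

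The other 4 Tnc probes were not well above background on either array, although the annotation assigned all 6 to the same transcript record. They read 127, 117, 123 and 158 units in the Dnmt1-/- (p53-/-) line (ILMN_1236724, ILMN_1251943, ILMN_2454497 and ILMN_2485085), and 147, 137, 139.8 and 181 units in the p53-/- line. ILMN_2485085 came closest to detection, with p-values of 0.01003 in the Dnmt1-/- (p53-/-) line and 0.0163 in the p53-/- line. The sources used here do not say which part of the transcript each probe matches, so Tnc is described by its 2 detected probes only, and nothing is read from the dim ones.

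Postn, periostin, is a matrix protein of fibroblasts in tendon, periosteum and heart valves. Its 1 probe (ILMN_1216882) read 134.3 units in the Dnmt1-/- (p53-/-) line and 133.7 units in the p53-/- line, with detection p-values of 0.102 in the Dnmt1-/- (p53-/-) line and 0.576 in the p53-/- line. Postn was therefore not well above background in either line, and no fold is given. Spp1 has no value here.

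**Figure D3:**
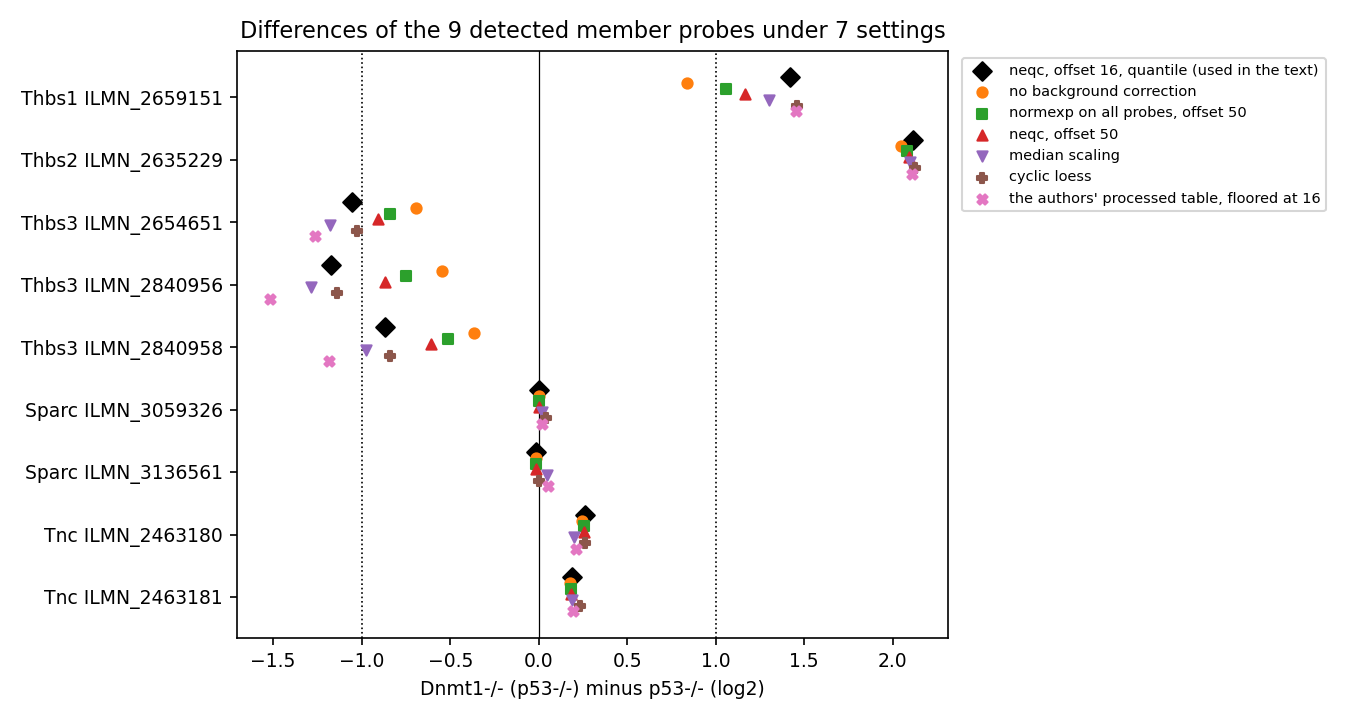
Differences of the 9 detected member probes, Dnmt1-/- (p53-/-) minus p53-/- in log2, under 7 ways of correcting and normalizing the signals, with black diamonds for the values of the text and dotted lines at 2-fold. Thbs2 stays between 2.05 and 2.13 log2, Thbs1 ranges from 0.84 to 1.46 log2, and the Thbs3 probes stay below 0 but cross the 2-fold line.

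Genes close to the members in family or function were described from 8 lists, with the probe of highest mean level for each gene. Of 64 such genes with a probe 40 were detected, 3 of them higher by 2-fold or more, 1 lower and 36 in between. This is 10.0% of the detected genes, beside 10.1% of all 7727 detected genes (5.55% higher and 4.59% lower), so the share was near the background. With undetected sides held at the lowest detected level, 2 of the 40 passed, beside 8.22% of all detected genes. Their median difference was 0.02 log2, beside -0.04 log2 over all detected genes.

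Of the other thrombospondin relatives, Thbs4 and Comp were detected on neither array. Spon2, a secreted protein with a thrombospondin repeat, read 563 units in the Dnmt1-/- (p53-/-) line and 363 units in the p53-/- line and was 2.04-fold higher, though below 2-fold without background correction (0.77 log2), with an offset of 50 (0.88 and 0.93 log2), under median scaling (0.90 log2) and with the authors' values (0.95 log2). The matrix proteases Adamts5 and Adamts4, which cut aggrecan, differed by -0.83 and -0.56 log2, and the 4 detected genes of this list had a median of -0.69 log2 with 1 higher and 0 lower. In the Sparc family only Fstl1 was detected, of 6 genes with a probe, at a difference of 0.39 log2. Of the tenascins besides Tnc, Tnr and Tnn were detected on neither array. Tnxb was detected in the Dnmt1-/- (p53-/-) line alone, at 171 units there and 153 units in the p53-/- line. Its measured difference was 1.05 log2, but set against the lowest detected level of the p53-/- array it was at least 1.51-fold higher, under 2-fold, and the mean over its 4 probes was 0.46 log2.

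The CCN proteins are matricellular proteins as well, and 4 of them had probes, all detected. Ccn5, also called Wisp2, read 1126 units in the Dnmt1-/- (p53-/-) line and 425 units in the p53-/- line and was 3.52-fold higher, a difference of 1.82 log2 beside a scatter of 0.34 log2. The Ccn5 difference stayed past 2-fold under each setting tried, at most 1.85 log2 with cyclic loess. Ccn2, connective tissue growth factor, differed by 0.52 log2, and Ccn4 by -0.44 log2. None of the 5 detected periostin relatives and partners reached 2-fold at the probe of highest mean level. Among them were the crosslinking enzyme Lox (-0.03 log2) and the collagen gene Col1a1 (-0.51 log2). Tgfbi, named after its value was seen, read 2258 units in the Dnmt1-/- (p53-/-) line and 4208 units in the p53-/- line. Its difference was -0.95 log2 at that probe, and the mean over its 2 probes, -1.10 log2, was past 2-fold. The relatives of osteopontin, Ibsp, Dmp1, Mepe and Dspp, were detected on neither array.

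The detected receptors and clearance proteins of the family lay within 2-fold. For the counts of this paragraph, the share past 2-fold over all detected genes was 10.1%. Of 22 with a probe 14 were detected, all 14 in between, from -0.48 to 0.88 log2 with a median of 0.05 log2. Cd44, the hyaluronan and osteopontin receptor, differed by 0.34 log2 at its probe of highest mean level, while the mean over its 6 probes was 0.08 log2. The integrin subunit gene Itgb5 differed by 0.26 log2. Cd36 was detected on neither array and Cd47 differed by 0.08 log2, both named after their values were seen because they are the main thrombospondin receptors. Of 11 detected genes of TGF-beta activation and response, 10 lay within 2-fold, among them the receptor gene Tgfbr2 (0.46 log2) and Ltbp3 (-0.47 log2), which holds latent TGF-beta in the matrix. Ldb2, a cofactor of LIM-domain transcription factors rather than a known component of this pathway, was detected in the p53-/- line alone, at 112 units in the Dnmt1-/- (p53-/-) line and 216 units in the p53-/- line. Its measured difference was -1.86 log2, and against the lowest detected level of the Dnmt1-/- (p53-/-) array it was at least 1.83-fold lower.

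**Figure D4:**
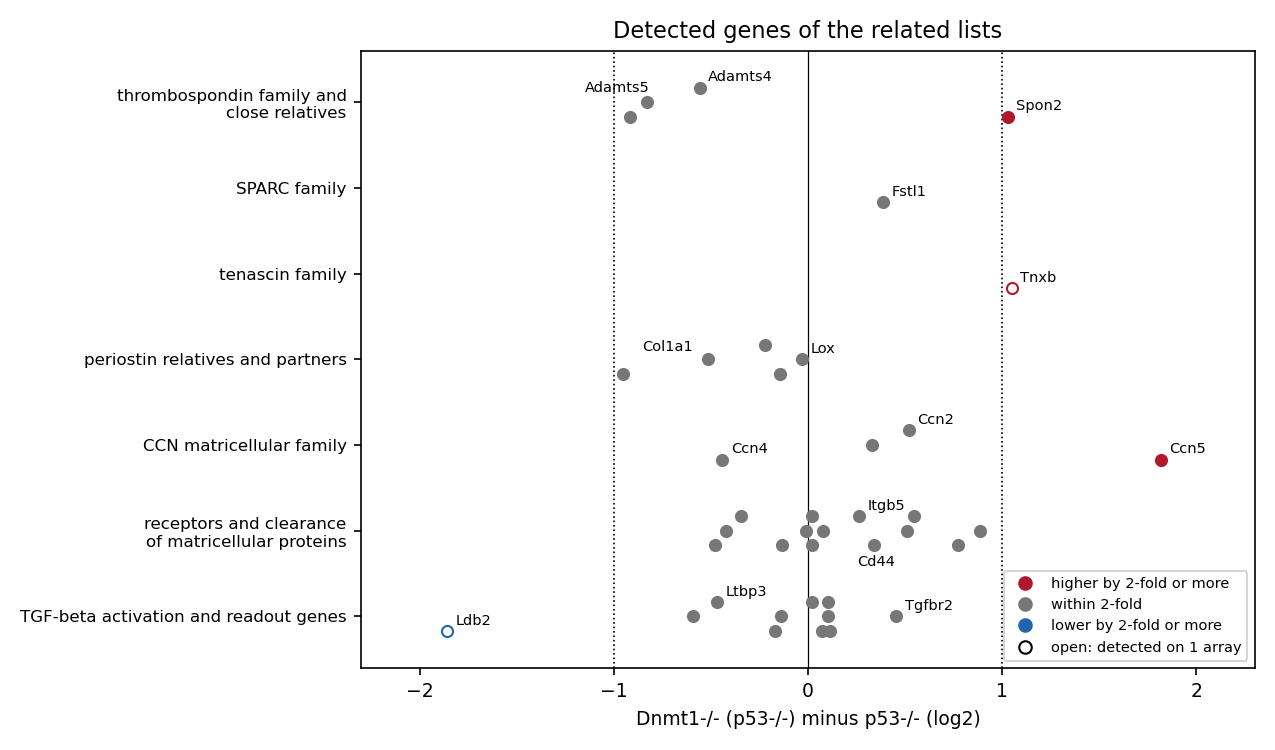
Measured differences, Dnmt1-/- (p53-/-) minus p53-/- in log2, of the detected genes in 7 of the 8 related lists; no member of the osteopontin family list was detected. Each point is 1 gene, open points were detected on 1 array, dotted lines mark 2-fold, and vertical offsets within a list separate the points. Ccn5 lies at 1.82 log2 and Spon2 at 1.03 log2, while Tnxb and Ldb2, past the lines, are open points whose bounds lie under 2-fold.

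In position, the members had no shared neighbourhood, with Thbs1 on chromosome 2, Thbs3 and Postn on 3, Tnc on 4, Spp1 on 5, Sparc on 11 and Thbs2 on 17. Of the 28 protein-coding genes that are the 2 nearest on each side in RefSeq order, 23 had a probe and 10 were detected, 1 of them higher by 2-fold or more and 9 in between. Over all detected genes 10.1% passed 2-fold in either direction. The higher neighbour was Slc36a1, near Sparc, which was detected in the Dnmt1-/- (p53-/-) line alone, at 215 units there and 163 units in the p53-/- line. Next to Thbs2, Smoc2 had no probe and Wdr27 was not detected, and next to Thbs1 neither Rasgrp1 nor Fsip1 was detected. Beyond Smoc2, Dact2 was detected in the Dnmt1-/- (p53-/-) line alone, at 177 units there and 162 units in the p53-/- line. Its measured difference was 0.94 log2, below 2-fold. Beyond Wdr27, 1600012H06Rik was detected on both arrays and differed by 0.03 log2. Mtx1, the gene beside the start of Thbs3, differed by -0.26 log2, with 2422 units in the Dnmt1-/- (p53-/-) line and 2871 units in the p53-/- line. The other neighbours were named by position, but Slc36a1, Dact2 and 1600012H06Rik after their values were seen.

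Other cell types can also make thrombospondins and osteopontin, and in a bulk sample fewer cells of a type and less RNA per cell cannot be told apart. None of the 8 endothelial markers with a probe was detected. Of 9 macrophage and blood markers with a probe 1 was detected, Cd14, while Ptprc, Adgre1, Lyz2 and Tyrobp were not. Cd14 read 327 units in the Dnmt1-/- (p53-/-) line and 229 units in the p53-/- line. After normalization it was 2.23-fold higher, a difference of 1.16 log2. The bone markers Sp7 and Phex were detected on both arrays, and Bglap, Alpl, Ibsp and Dmp1 on neither. Sp7 differed by -0.99 log2, just within 2-fold, and Phex by -0.14 log2. Of 8 smooth muscle and myofibroblast markers 5 were detected, all within 2-fold, among them Acta2 at -0.15 log2. Of 8 epithelial markers with a probe 3 were detected, all in the Dnmt1-/- (p53-/-) line alone. Of these Krt14 and Krt7 passed 2-fold while Krt8 did not (measured difference 0.35 log2), and over all detected genes 10.1% passed. The background-corrected signal summed over all 8 epithelial markers was 843.5 units in the Dnmt1-/- (p53-/-) line and 128.9 units in the p53-/- line. Krt14 read 502 units in the Dnmt1-/- (p53-/-) line and 138.3 units in the p53-/- line, and Krt7 read 451 units in the Dnmt1-/- (p53-/-) line and 159 units in the p53-/- line, while Cdh1, Krt5 and Krt18 were detected on neither array. The part of these markers in the thrombospondin differences was not tested.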

How the data were processed

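Transcript levels were deposited as 1 Illumina bead array sample for each of 2 genotypes, which were taken from the labels. The sources used here do not say whether each deposited value is a mean of several measurements. The members and lists were chosen with earlier results of these data known. Per the file headers, the deposited intensity of each probe was non-normalized, and its values were linear. A deposited detection p-value stood beside each. The authors' processed intensity table was linear too, with a shared mean of 507 and column medians of 13.8 for the Dnmt1-/- (p53-/-) line and 14.2 for the p53-/- line. Below 0 lay 26.4% of its Dnmt1-/- (p53-/-) values and 26.7% of its p53-/- values. It ranked probes nearly as the unprocessed signals did, and how its background and scaling were made is unknown. The sources used here name no scanner software.

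The function neqc of limma 3.58.1 (R 4.3.3) corrected the background, added an offset of 16, applied quantile normalization and took log2. Detection meant a p-value under 0.01 on at least 1 array. Genes were named from the platform annotation, which gave 23978 probes 1 symbol, 0 several and 1719 none. Where 1 array did not detect a gene, its fold is "at least", against the lowest detected level there (5.66 log2 in the Dnmt1-/- (p53-/-) line and 5.57 log2 in the p53-/- line) or its own level if higher. A log2 difference printed for such a gene is the measured one. All members and their probes were named. From each related list up to 4 genes past 2-fold were named, and where fewer than 2 passed, up to 2 detected genes of highest mean level in addition. Promoter sequences and gene order came from RefSeq tables on GRCm38.p6. The promoter table used here matched 6 of the 7 member genes, all but Thbs1. Alternatives were other background corrections, offsets, normalizations, filters and thresholds. With 1 array per genotype, precision is limited by their number.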

Additional observations from a re-analysis of the deposited data

How the results depend on the processing

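The direction of each of the 4 member probes past 2-fold held under all 7 alternative ways of computing the differences. Among these, bounding at the lowest detected level cannot change a probe detected on both arrays, so it was no check here. Thbs2 kept its call under every alternative, at 2.05 to 2.13 log2, and Thbs1 under all but no background correction. The number of higher member probes, 2, fell to 1 without background correction. The number of lower ones, 2 Thbs3 probes, fell to 0 without background correction, with normexp and an offset of 50, and with neqc and an offset of 50. The Thbs3 calls, from differences of -1.05 and -1.17 log2 not far past the 2-fold limit, thus depended on background correction and offset. The Thbs1 call depended on background correction. Over all probes, 563 were higher and 452 lower, beside 260 and 178 without background correction, 357 and 258 with normexp and an offset of 50, and 1057 and 1082 at 1.5-fold. With neqc and an offset of 50, 289 were lower, and with the authors' processed values 742 were lower. Median scaling gave 514 higher and 543 lower. Of the related lists, 4 genes passed 2-fold, beside 1 without background correction, 2 with either offset of 50, 2 with bounded differences and 10 at 1.5-fold. No paired analysis was possible because each genotype had 1 sample, and for the same reason no sample could be left out.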
